A study of Mus musculus with 14 samples.

Results

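Transcripts of chemokines and of their receptors were measured in lung and in gastrocnemius, the large muscle of the calf, in mice given lung tumour cells. Members were taken by symbol: every gene named Ccl, Cxcl, Ccr or Cxcr with a digit, and Xcl1, Cx3cl1, Xcr1 and Cx3cr1, leaving out Cxcl15 and pseudogenes. This gave 56 of the 55416 genes in the tables, namely 37 ligands and 19 receptors.

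Chemokines are small secreted proteins that direct the movement of leukocytes, and most act through receptors coupled to G proteins on the cells that move. They are sorted by the spacing of their cysteines into CC, CXC, XC and CX3C families. Some are made in quiet tissue and place cells there, such as CXCL12 and CCL21, while others are induced in inflammation, such as the CXCR2 ligands that draw neutrophils and the CXCR3 ligands that draw T cells and NK cells.

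All 4 groups were C57BL/6 (C57BL/6NCrlOri) mice, and the protocol of the model names males of 6 to 8 weeks that received KrasIKKaL cells through the trachea. The titles mark the libraries as TB, read here as tumour-bearing, or CON, read as control. Tumour-bearing lung had 5 libraries and control lung 3, while tumour-bearing and control gastrocnemius had 3 each. The sources used here do not state the treatment of the controls or whether each library is a different mouse. The p-values therefore rest on variation among libraries, some of which may be technical. KrasIKKaL is a single transplanted line, and bulk RNA of tumour-bearing lung holds the RNA of its cells beside that of the host.

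Library totals ran from 33199782 to 44169410 counts in tumour-bearing and from 32476194 to 36546828 in control muscle, and from 47947363 to 61087315 in tumour-bearing and from 50157111 to 55987871 in control lung. Values below are counts-per-million (CPM) of TMM-scaled library size unless TPM, which also divides by transcript length, is named. Summed over 5 genes of skeletal muscle, the muscle libraries held 53454 to 99354 CPM in tumour-bearing mice and 67324 to 74564 CPM in controls, and lung held at most 62.1 CPM. Summed over 5 genes of alveolar type 2 cells, tumour-bearing lung held 122.1 to 997.7 CPM and control lung 19611 to 21631 CPM, and all 5 genes were lower. All 4 genes of alveolar type 1 cells were lower too, with sums of 11.5 to 184.0 CPM in tumour-bearing and 3415 to 3970 CPM in control lung. So were all 4 of club and ciliated cells, with 27.6 to 964.9 CPM in tumour-bearing and 21893 to 25694 CPM in control lung. Of erythroid cells and platelets all 4 were lower, with 79.8 to 960.5 CPM in tumour-bearing and 2991 to 4316 CPM in control lung. Of 7 alveolar macrophage genes 4 were lower, with 52.2 to 1181 CPM in tumour-bearing and 378.9 to 1232 CPM in control lung. The 4 mast cell genes summed to 0.559 to 17.9 CPM in tumour-bearing and 1.80 to 2.55 CPM in control lung, with a median log2 fold change of -0.15. The part of these cells in the lung results was not tested. Genes of other cell types are given with the members. In bulk RNA, fewer cells of a type and less RNA per cell cannot be told apart.

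The promoters of 5 CXC ligands are shown because these genes carry the sharpest contrasts below: Cxcl3 against Cxcl2 in lung, Cxcl9 against Cxcl10 in muscle, and Cxcl12, which was lower in both tissues. RefSeq (GRCm38.p6) gave such a window for 41 of the 56 members. Each line holds the 250 bases before the start site, 5′ to 3′ on the gene's own strand, with matches to the kappaB motif and to the interferon-stimulated response element (ISRE) in capitals. On that build Cxcl3 covers chr5:90785851-90786100 on the plus strand and Cxcl2 chr5:90903649-90903898 on the plus strand. Cxcl9 covers chr5:92328080-92328329 and Cxcl10 chr5:92348890-92349139, both on the minus strand, and Cxcl12 covers chr6:117168285-117168534 on the plus strand.
Cxcl3: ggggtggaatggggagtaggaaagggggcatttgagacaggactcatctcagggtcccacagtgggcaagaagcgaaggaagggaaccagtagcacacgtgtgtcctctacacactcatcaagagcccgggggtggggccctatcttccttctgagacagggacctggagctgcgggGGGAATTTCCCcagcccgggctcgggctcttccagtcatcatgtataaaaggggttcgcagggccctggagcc
Cxcl2: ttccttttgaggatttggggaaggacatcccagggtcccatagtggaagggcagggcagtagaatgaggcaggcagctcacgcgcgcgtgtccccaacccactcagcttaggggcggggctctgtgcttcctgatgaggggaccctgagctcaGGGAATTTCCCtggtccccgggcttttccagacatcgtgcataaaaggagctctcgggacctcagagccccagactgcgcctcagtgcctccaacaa
Cxcl9: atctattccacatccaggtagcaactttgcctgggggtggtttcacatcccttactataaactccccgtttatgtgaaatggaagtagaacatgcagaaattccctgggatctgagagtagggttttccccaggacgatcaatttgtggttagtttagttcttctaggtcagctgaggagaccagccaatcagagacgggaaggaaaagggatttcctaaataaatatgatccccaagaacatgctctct
Cxcl10: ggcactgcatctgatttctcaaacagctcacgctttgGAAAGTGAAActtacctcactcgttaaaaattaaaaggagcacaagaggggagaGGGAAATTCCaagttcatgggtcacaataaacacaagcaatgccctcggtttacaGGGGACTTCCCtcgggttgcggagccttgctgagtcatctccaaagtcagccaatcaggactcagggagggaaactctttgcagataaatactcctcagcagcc
Cxcl12: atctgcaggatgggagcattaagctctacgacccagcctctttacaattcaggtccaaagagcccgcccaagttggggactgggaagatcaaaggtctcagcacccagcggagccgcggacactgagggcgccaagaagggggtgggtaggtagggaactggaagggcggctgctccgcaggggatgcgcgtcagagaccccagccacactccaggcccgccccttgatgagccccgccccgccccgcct

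Cxcl3 and Cxcl2 held the same run of 11 bases, GGGAATTTCCC, which matches kappaB on both strands, 73 to 63 bases before the start site of Cxcl3 and 97 to 87 bases before that of Cxcl2. Cxcl1 held it too, 71 to 61 bases before its start site. The Cxcl10 window had 2 kappaB runs and 1 ISRE match, and those of Cxcl9 and Cxcl12 had neither. Searched on both strands, kappaB was found in 9 of the 41 member windows and in 7.01% of 27025 gene windows, and the ISRE (GAAANNGAAA) in 3 of 41 and in 3.04% of gene windows. The gamma-activated sequence (TTCNNNGAA) was found in 4 of 41 member windows and in 7.18% of gene windows, the AP-1 motif (TGANTCA) in 4 of 41 and in 6.87%, and the glucocorticoid element in 0 of 41 and in 0.381%. ISRE and kappaB matches did not overlap in the 5 windows shown. A match is a run of letters and not a shown binding site.

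In lung, 51 of the 56 members had enough counts to be tested, and in tumour-bearing lung 7 were higher, 17 were lower and 27 did not pass an adjusted p of 0.05 (edgeR quasi-likelihood test, Benjamini-Hochberg over all genes). Of all 19300 genes tested in lung, 59.7% passed, 30.4% as higher and 29.3% as lower, so the 24 members called are a smaller share than among all genes, with fewer higher calls. These are 5862 higher and 5651 lower genes, which limma turned to 3594 and 7994 on log2(TPM + 1) and to 3782 and 7908 on log2(TPM + 0.1). The median log2 fold change was -0.24 over the 51 members and 0.07 over all genes tested. Ligands divided into 6 higher and 9 lower of 34 tested, and receptors into 1 higher and 8 lower of 17. The groups did not overlap for 26 of the 51 members, against 63.0% of all genes, and for 22 of the 24 called, the exceptions being Ccl8 and Ccl21b. Ccl26, Ccl27b, Ccr1l1, Ccr3 and Cxcl11 were not tested for low counts.

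**Figure D1:**
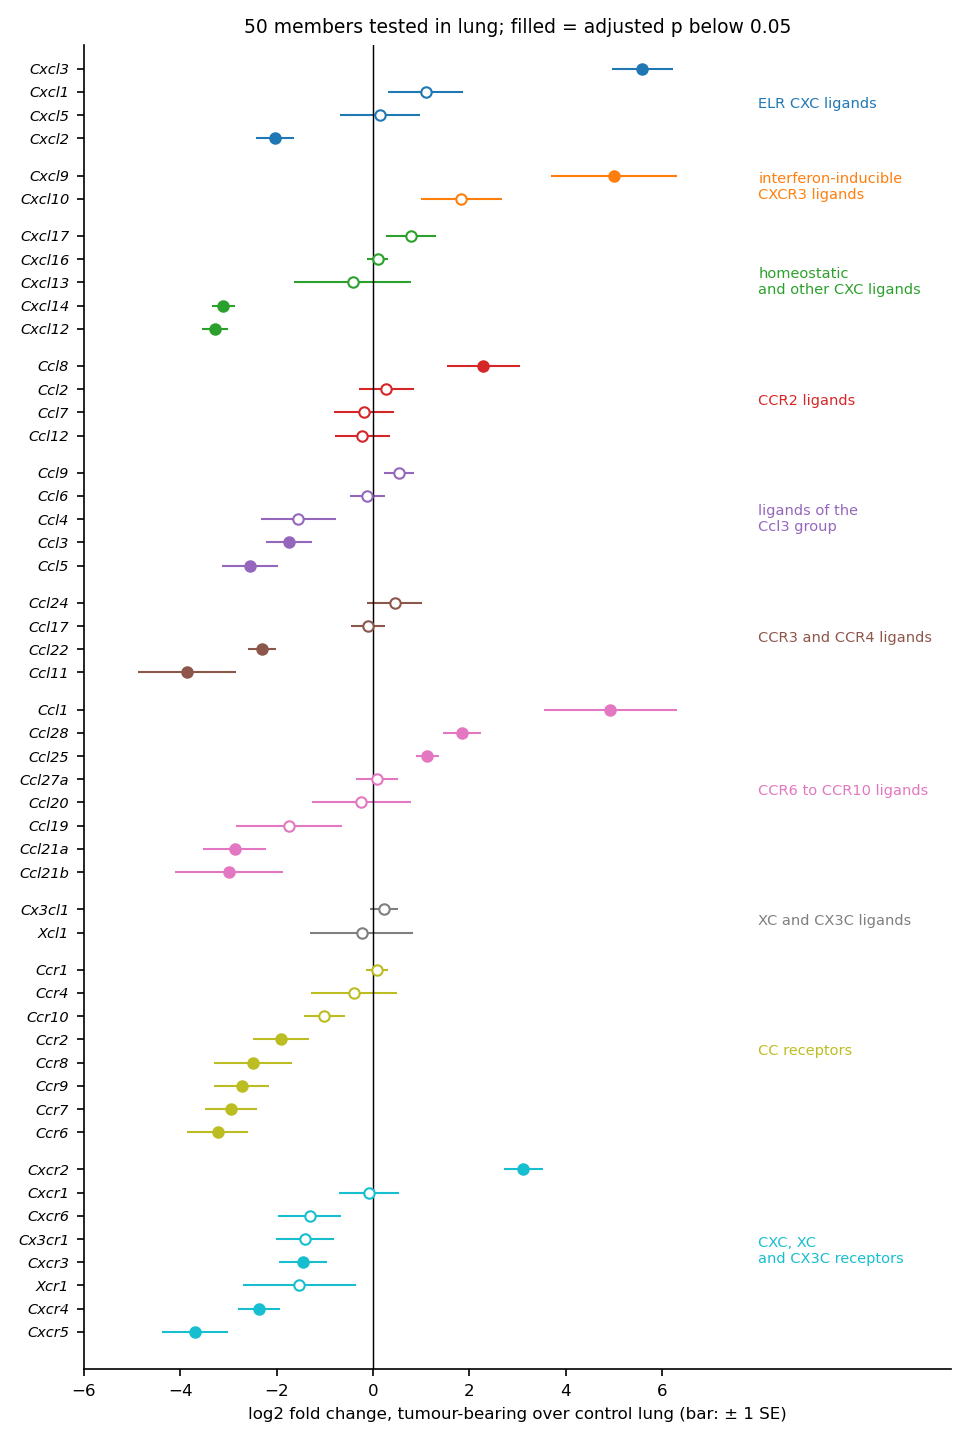
Log2 fold change of tumour-bearing over control lung (horizontal axis) for 50 of the members tested, grouped by role down the page, with bars of 1 SE on each side and filled points for adjusted p below 0.05. Cxcl3 stands farthest to the right at 5.59 and Ccl11 farthest to the left at -3.86, and Cxcr2 is the filled receptor on the right.

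Of the 4 CXC ligands in this set that carry the ELR motif and act on CXCR2, Cxcl3 was higher and Cxcl2 lower in tumour-bearing lung. Cxcl3 had 24.5, 18.5, 5.47, 16.0 and 32.3 CPM in tumour-bearing libraries 1 to 5, against 0.293, 0.488 and 0.418 CPM in controls. All 5 tumour-bearing libraries lay far above the controls, and the rise was 5.59 on the log2 scale (SE 0.64, adjusted p = 9.49e-05), or 48.2-fold. Cxcl2, which lies near it on chromosome 5 and has the same kappaB run, had 5.24, 7.12, 2.62, 7.87 and 11.7 CPM in tumour-bearing lung, against 31.2, 26.3 and 27.6 CPM in controls. It fell by 2.04 (SE 0.39, adjusted p = 0.00183), with no overlap. Library 3 was the lowest and library 5 the highest of the tumour-bearing libraries for both genes.

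The other ELR ligands of the set, Cxcl1 and Cxcl5, did not pass the test. Cxcl1 had 6.99, 5.79, 1.70, 3.19 and 17.4 CPM in tumour-bearing lung and 6.38, 1.68 and 1.78 CPM in controls (log2 fold change 1.09, SE 0.77, adjusted p = 0.250). Cxcl5, which mouse airway epithelium makes in inflammation, averaged 1.52 ± 1.51 CPM in tumour-bearing and 1.37 ± 0.163 CPM in control lung (SD, n = 5 and 3). Per length, Cxcl3 averaged 23.6 TPM in tumour-bearing and 0.570 TPM in control lung, and Cxcl2 averaged 7.22 TPM in tumour-bearing and 43.3 TPM in control lung. The more abundant of this pair was thus Cxcl3 in tumour-bearing lung and Cxcl2 in control lung.

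Cxcr2, their main receptor and the one that guides neutrophils out of the marrow and into tissue, was the receptor that rose. It had 21.2, 42.4, 20.8, 36.3 and 61.4 CPM in tumour-bearing lung, against 3.91, 4.48 and 4.14 CPM in controls. The lowest tumour-bearing library lay above every control, and the rise was 3.12 (SE 0.41, adjusted p = 0.000205), or 8.72-fold. Cxcr1, which in mice binds some of the same ligands, stayed low, at 0.208 ± 0.140 CPM in tumour-bearing and 0.223 ± 0.0707 CPM in control lung (log2 fold change -0.07, SE 0.62, adjusted p = 0.928).

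Beside Cxcr2, of 7 genes of neutrophils 1 was higher and 2 were lower, and their summed level was 51.5 to 151.6 CPM in tumour-bearing and 69.5 to 130.7 CPM in control lung. Ly6g, a surface protein of mouse neutrophils, was at 0.147 to 0.615 CPM in tumour-bearing and 0.0976 to 0.471 CPM in control lung (log2 fold change 0.21, SE 0.63, adjusted p = 0.786). Csf3r, the receptor for G-CSF on neutrophils, had 8.54, 6.77, 3.97, 6.40 and 3.47 CPM in tumour-bearing and 13.7, 15.4 and 14.9 CPM in control lung, a fall of 1.33 (SE 0.31, adjusted p = 0.00480). Retnlg fell by 1.32 (SE 0.34, adjusted p = 0.00826), whereas Il1r2, a decoy receptor for interleukin 1, rose by 2.42 (SE 0.58, adjusted p = 0.00607). Csf3, which encodes G-CSF, had 4.86, 10.0, 3.25, 8.28 and 6.58 CPM in tumour-bearing lung and 0, 0.0337 and 0.0908 CPM in controls, and was higher (adjusted p = 0.000114).

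**Figure D2:**
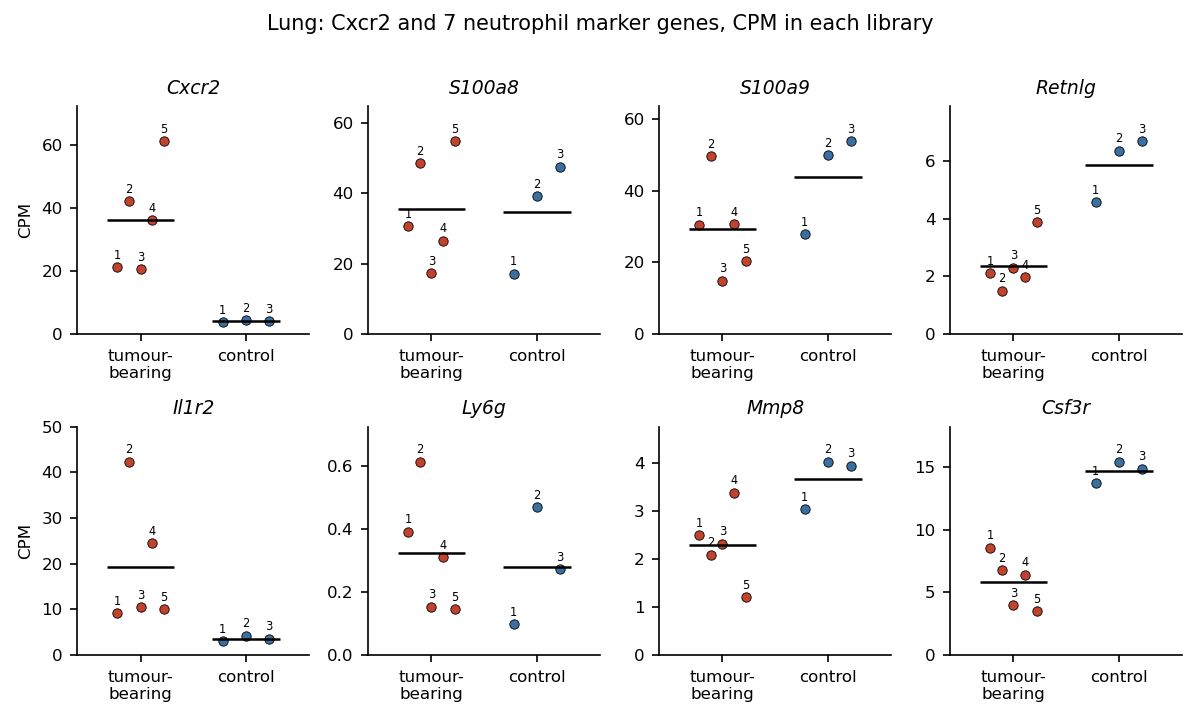
CPM in each lung library (vertical axes) for Cxcr2 and 7 neutrophil genes, tumour-bearing left and control right, with the library number beside each point and the group mean as a bar. Cxcr2 and Il1r2 lie above all controls in the 5 tumour-bearing libraries, Retnlg and Csf3r lie below them, and the other markers overlap or did not pass the test.

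Among the CXCR3 ligands, which interferon induces and which draw activated T cells and NK cells, Cxcl9 rose in lung. It had 35.5, 3.67, 95.4, 4.78 and 6.34 CPM in tumour-bearing lung, against 0.732, 1.03 and 0.944 CPM in controls. Libraries 1 and 3 were far above the other three, yet each of the 5 was above all controls (log2 fold change 5.01, SE 1.31, adjusted p = 0.00910). Without library 3 the value was 3.80, and on log2(TPM + 1) and log2(TPM + 0.1) with limma the call was lost. Cxcl10 had 11.4, 1.43, 6.41, 0.973 and 13.2 CPM in tumour-bearing and 1.72, 2.19 and 1.71 CPM in control lung, and did not pass (log2 fold change 1.84, SE 0.84, adjusted p = 0.0878). Cxcl11 had 67 counts in all over tumour-bearing lung and 1 over control lung and was not tested, and without a count filter it passed (adjusted p = 0.00889).

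Cxcr3 itself, the shared receptor of these 3 ligands, was lower. It had 0.606, 0.496, 0.937, 0.166 and 0.318 CPM in tumour-bearing lung, against 1.12, 1.67 and 1.38 CPM in controls (log2 fold change -1.45, SE 0.50, adjusted p = 0.0311). The call was lost when any 1 control was left out, without tumour-bearing library 2 or 5, and with the replicate number as a block. Ligand and receptor called in opposite directions thus stood side by side in this pair.

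The tumour-bearing libraries differed among themselves along the genes of T and NK cells. Libraries 1 and 3, the highest for Cxcl9 and Cxcr3, were also the highest for Xcr1, which marks cross-presenting dendritic cells, with 2.29, 0.0595, 2.64, 0.145 and 0.0245 CPM over libraries 1 to 5, against 3.58, 2.66 and 2.76 CPM in controls. The same held for its ligand Xcl1, at 1.19, 0, 0.886, 0.0828 and 0.171 CPM, against 0.814, 0.438 and 0.418 CPM in controls. Cxcr6, a receptor of resident T cells, had 2.11, 0.734, 1.99, 0.455 and 0.245 CPM, against 3.24, 2.31 and 2.78 CPM in controls. None of Xcr1, Xcl1 and Cxcr6 passed the test in lung. Summed over 8 T cell genes, libraries 1 to 5 held 22.2, 8.63, 29.7, 5.88 and 5.51 CPM, against 28.0 to 41.6 CPM in controls, and over 6 NK cell genes 6.28, 1.92, 14.2, 1.33 and 0.857 CPM, against 26.2 to 31.1 CPM. The part of these cells in the spread of Cxcl9 was not tested.

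Of the CXC ligands made in quiet tissue, Cxcl12 and Cxcl14 had the smallest p of all members in lung. Cxcl12, which holds leukocytes and stem cells in their niches through CXCR4, had 13.6, 17.9, 9.47, 8.26 and 17.5 CPM in tumour-bearing lung, against 135.1, 125.1 and 128.8 CPM in controls. Every tumour-bearing library was far below the controls, and Cxcl12 fell by 3.28 (SE 0.27, adjusted p = 1.67e-05), 9.71-fold lower. Cxcl14, a ligand of epithelium and stroma, had 13.7, 16.2, 7.69, 17.2 and 15.0 CPM, against 133.0, 117.0 and 110.2 CPM in controls, a fall of 3.11 (SE 0.24, adjusted p = 1.41e-05). Cxcr4, the receptor of CXCL12, had 12.9, 2.40, 10.5, 6.27 and 6.83 CPM in tumour-bearing lung, against 43.0, 38.4 and 38.9 CPM in controls, and fell by 2.36 (SE 0.43, adjusted p = 0.00137).

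Cells that make these ligands in lung include endothelium and fibroblasts. All 6 endothelial genes were lower, with a summed level of 99.6 to 130.5 CPM in tumour-bearing and 2329 to 2542 CPM in control lung, and 2 of 6 fibroblast genes were lower, with sums of 412.5 to 1450 CPM in tumour-bearing and 1168 to 1222 CPM in control lung. Their part in the fall of Cxcl12 and Cxcl14 was not tested. Cxcl13, the ligand that gathers B cells, had 0.589, 15.7, 0.988, 0.269 and 0.612 CPM in tumour-bearing lung and 4.23, 5.20 and 5.10 CPM in controls. Library 2 stood apart above the controls, the other 4 lay below them, and Cxcl13 did not pass (log2 fold change -0.42, SE 1.21, adjusted p = 0.781).

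Cxcr5, the receptor of CXCL13 on B cells and follicular T cells, had 0.376, 0.0794, 0.0682, 0.0207 and 0.0979 CPM in tumour-bearing lung, against 1.37, 1.88 and 1.91 CPM in controls. It fell by 3.68 (SE 0.68, adjusted p = 0.00151). Exons of Cxcr5 overlap those of Bcl9l on the opposite strand, which fell by 0.77 (SE 0.19, adjusted p = 0.00773). Bcl9l had 53.2 to 99.0 CPM in tumour-bearing and 121.6 to 133.3 CPM in control lung. All 5 B cell genes were lower too, with sums of 0.857 to 7.86 CPM in tumour-bearing and 31.8 to 66.7 CPM in control lung. Cxcl16, a membrane-bound ligand of CXCR6, and Cxcl17, a mucosal chemokine, did not pass: Cxcl16 averaged 84.7 ± 21.3 CPM in tumour-bearing and 78.9 ± 1.96 CPM in control lung, and Cxcl17 43.8 ± 29.1 CPM in tumour-bearing and 25.3 ± 0.996 CPM in control lung (SD, n = 5 and 3).

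**Figure D3:**
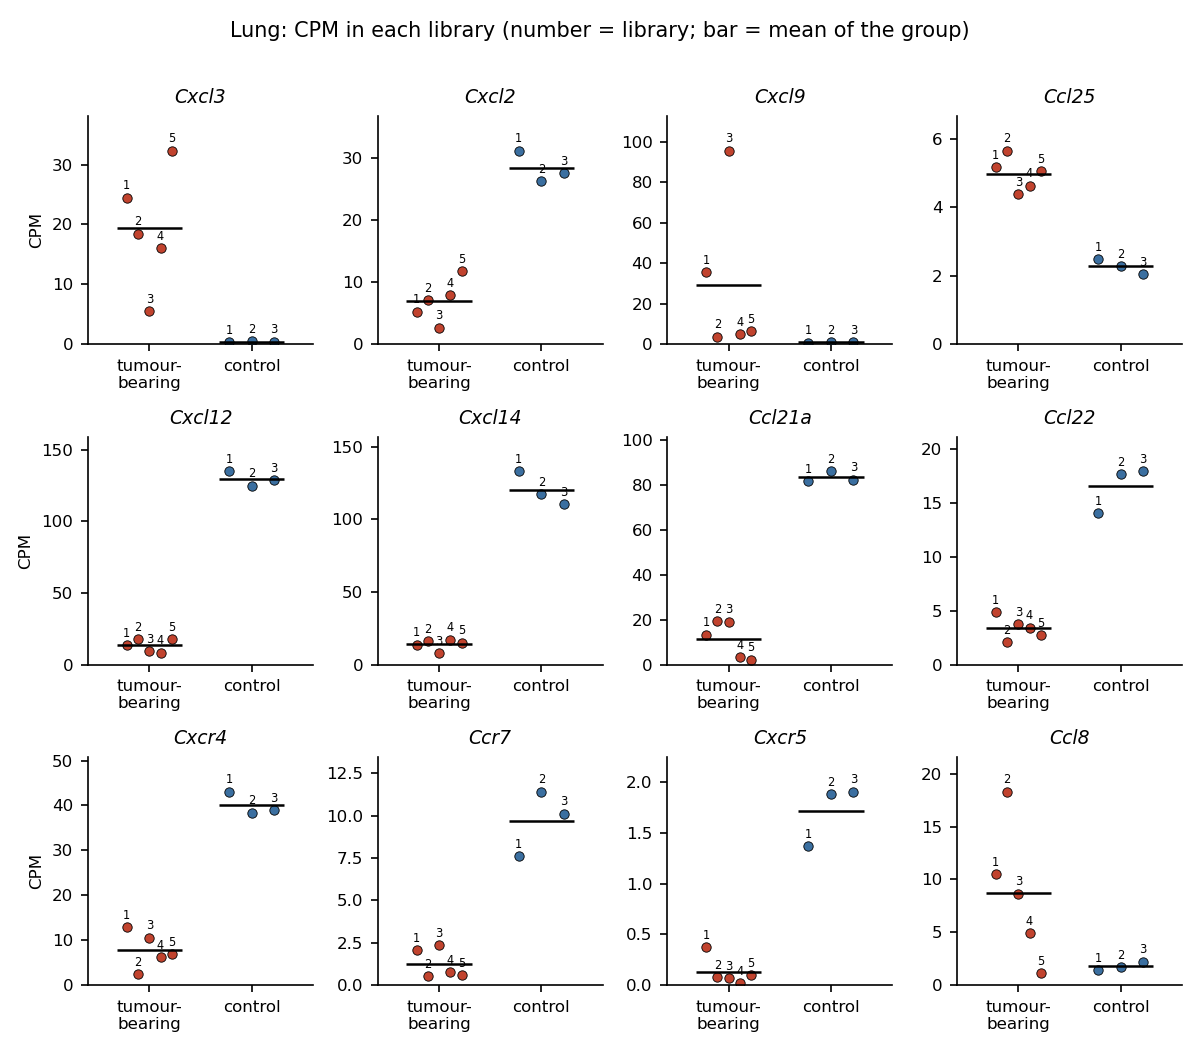
CPM in each lung library (vertical axes, each panel with its own scale from 0) for 12 members called in lung, tumour-bearing left and control right, with the library number beside each point and the group mean as a bar. Cxcl3, Cxcl9 and Ccl25 lie above all controls in 5 of 5 tumour-bearing libraries, Ccl8 in 4 of 5, and the other 8 genes lie below all controls in 5 of 5.

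Of the 4 monocyte chemoattractant genes, Ccl8 was higher and Ccl2, Ccl7 and Ccl12 did not pass. Ccl8 had 10.5, 18.3, 8.64, 4.89 and 1.13 CPM in tumour-bearing lung, against 1.42, 1.70 and 2.20 CPM in controls (log2 fold change 2.29, SE 0.75, adjusted p = 0.0258). Library 5 was below every control, and the call was lost when any 1 control was left out and in both limma fits on TPM. Ccl2, the best known of the group, had 4.03, 1.59, 2.81, 3.44 and 11.2 CPM in tumour-bearing and 4.25, 3.50 and 3.65 CPM in control lung (log2 fold change 0.28, SE 0.57, adjusted p = 0.695). Ccl7 and Ccl2 were highest in the same library, number 5, in which Ccl7 had 4.94 CPM.

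Ccr2, the monocyte receptor of CCL2, CCL7 and CCL12, fell by 1.91 (SE 0.57, adjusted p = 0.0177). It had 5.89, 12.4, 8.89, 1.86 and 2.06 CPM in tumour-bearing lung, against 21.9, 24.03 and 24.2 CPM in controls, with no overlap. Of 10 monocyte and macrophage genes 1 was higher and 2 were lower, and their sum was 367.9 to 477.6 CPM in tumour-bearing and 299.3 to 327.7 CPM in control lung.

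The inflammatory CC ligands Ccl3, Ccl4, Ccl5, Ccl6 and Ccl9, made by macrophages and, for some, cytotoxic lymphocytes, held 2 lower members of 5 and no higher one. Ccl5 had 5.35, 0.913, 5.11, 2.03 and 1.03 CPM in tumour-bearing lung, against 16.6, 17.8 and 16.4 CPM in controls, and fell by 2.55 (SE 0.59, adjusted p = 0.00483). Ccl3 had 3.49, 0.754, 1.64, 3.77 and 3.57 CPM, against 9.62, 9.003 and 8.01 CPM in controls, and fell by 1.75 (SE 0.47, adjusted p = 0.0111). Ccl4, the close relative of Ccl3, had a log2 fold change of -1.54 (SE 0.78, adjusted p = 0.115). Ccl6, a ligand found in rodents, had the highest TPM of all members in both lung groups, at 188.6 TPM in tumour-bearing and 275.6 TPM in control lung, and did not pass (log2 fold change -0.12, SE 0.37, adjusted p = 0.798). Ccr1, a receptor of this group, did not pass either, and averaged 9.23 ± 1.77 CPM in tumour-bearing and 8.74 ± 1.28 CPM in control lung (SD, n = 5 and 3).

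The ligands of CCR3 and CCR4, which draw eosinophils, Th2 cells and regulatory T cells, held 2 lower members of 4 tested. Ccl22, made by dendritic cells and macrophages, had 4.89, 2.06, 3.73, 3.42 and 2.72 CPM in tumour-bearing lung, against 14.04, 17.7 and 18.0 CPM in controls, and fell by 2.30 (SE 0.29, adjusted p = 0.000163). Ccl17, which shares the receptor CCR4 and also lies on chromosome 8, averaged 11.2 ± 3.16 CPM in tumour-bearing and 11.99 ± 4.62 CPM in control lung (SD, n = 5 and 3; log2 fold change -0.10, SE 0.35, adjusted p = 0.809). Ccl11, or eotaxin, had 0.0982, 1.15, 0.0682, 0.0207 and 0.0979 CPM, against 3.47, 4.81 and 4.32 CPM in controls, and fell by 3.86 (SE 1.02, adjusted p = 0.00961). Library 2 held most of what was left, and without it the fall was 5.81 on the log2 scale. Ccr4 was at 0.243 ± 0.266 CPM in tumour-bearing and 0.329 ± 0.0512 CPM in control lung (SD, n = 5 and 3) and did not pass, and Ccr3, the receptor of CCL11, had 12 counts in all over tumour-bearing and 18 over control lung.

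Of the axis that brings dendritic cells into lymphatics, the ligand Ccl21a and the receptor Ccr7 were lower, and the ligand Ccl19 did not pass. Ccl21a, made by lymphatic endothelium, had 13.2, 19.2, 19.1, 3.23 and 2.20 CPM in tumour-bearing lung, against 81.7, 86.2 and 82.5 CPM in controls, and fell by 2.87 (SE 0.65, adjusted p = 0.00434). Ccl21b is a near-identical copy between which and Ccl21a reads may be divided unevenly, with 2.49, 0.198, 4.09, 0.435 and 0.440 CPM in tumour-bearing lung and 0.700, 17.8 and 18.0 CPM in controls. Its own call (log2 fold change -2.98, SE 1.12, adjusted p = 0.0435) was lost in 9 of 17 alternatives, and the value was -3.75 without tumour-bearing library 3. Summed, the 2 copies held 15.7, 19.4, 23.2, 3.66 and 2.64 CPM, against 82.4, 104.0 and 100.5 CPM in controls, and fell by 2.89 (SE 0.64, adjusted p = 0.00400).

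Ccr7, their receptor on migrating dendritic cells and lymphocytes, had 2.06, 0.536, 2.35, 0.745 and 0.563 CPM in tumour-bearing lung, against 7.60, 11.4 and 10.1 CPM in controls, and fell by 2.95 (SE 0.54, adjusted p = 0.00145). Ccl19, its other ligand, had 0.311, 1.91, 0.375, 0.0414 and 0 CPM, against 1.85, 1.80 and 1.67 CPM in controls, and did not pass (log2 fold change -1.74, SE 1.10, adjusted p = 0.199). Beside these, 5 of 6 dendritic cell genes were lower, with sums of 5.02 to 14.2 CPM in tumour-bearing and 88.5 to 90.3 CPM in control lung. Of 5 lymphatic endothelial genes 4 were lower and Prox1 was higher, with sums of 42.5 to 127.7 CPM in tumour-bearing and 662.6 to 722.3 CPM in control lung. Their part in the fall of Ccl21a and Ccr7 was not tested.

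Ccl25 and Ccl1 were higher in tumour-bearing lung, and their receptors Ccr9 and Ccr8 were lower. Ccl25, the gut and thymus ligand, had 5.17, 5.66, 4.38, 4.64 and 5.07 CPM in tumour-bearing lung, against 2.49, 2.27 and 2.05 CPM in controls, and rose by 1.13 (SE 0.24, adjusted p = 0.00324). Its exons overlap those of Elavl1 on the opposite strand, which rose by 0.34 (SE 0.13, adjusted p = 0.0436). Ccr9, the receptor of CCL25, had 0.229, 0.0992, 0.341, 0.166 and 0.0245 CPM, against 0.960, 1.19 and 1.36 CPM in controls, and fell by 2.72 (SE 0.58, adjusted p = 0.00309). Exons of Ccr9 overlap those of Slc6a20a on the opposite strand and those of the noncoding gene Gm17200 on the same strand. Strand cannot separate reads of Ccr9 and Gm17200 in their shared stretch.

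Ccl1, the ligand of CCR8, had 1.26, 0.0397, 1.77, 0.0828 and 0.612 CPM in tumour-bearing lung, against 0.0325, 0.0168 and 0.0182 CPM in controls. It was higher (adjusted p = 0.0131), with libraries 1 and 3 the highest again, and its fitted rise of 4.93 (SE 1.39) rests on 4 counts in all over the controls. The call was lost without control 2 or 3 and on log2(TPM + 1) with limma, and without tumour-bearing library 1, 3 or 5 it no longer had enough counts to be tested. Ccl8, which in mice also acts on CCR8, was higher as given above. Ccr8, found on Th2 and regulatory T cells, had 0.262, 0, 0.187, 0.0414 and 0.0245 CPM, against 0.602, 0.639 and 0.599 CPM in controls, and fell by 2.49 (SE 0.81, adjusted p = 0.0254). That call was lost without any 1 control, without tumour-bearing library 4 and with the replicate number as a block, and the value was -3.12 without library 1.

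Ccl28, a mucosal ligand of CCR10, had 1.11, 0.754, 0.699, 0.518 and 0.514 CPM in tumour-bearing lung, against 0.212, 0.168 and 0.218 CPM in controls, and rose by 1.84 (SE 0.40, adjusted p = 0.00338), a call lost in limma on log2(TPM + 1) (adjusted p = 0.0592). Ccr10 averaged 0.183 ± 0.0953 CPM in tumour-bearing and 0.368 ± 0.0894 CPM in control lung (SD, n = 5 and 3) and did not pass (log2 fold change -1.005, SE 0.43, adjusted p = 0.0706). Ccr6, found on B cells, Th17 cells and dendritic cells, had 0.0491, 0.139, 0.0682, 0 and 0.0489 CPM, against 0.439, 0.740 and 0.599 CPM in controls, and fell by 3.22 (SE 0.64, adjusted p = 0.00214). Its ligand Ccl20 did not pass (log2 fold change -0.24, SE 1.03, adjusted p = 0.853). Ccl27a, a skin ligand of CCR10, averaged 6.66 ± 3.95 CPM in tumour-bearing and 6.28 ± 0.526 CPM in control lung.

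Cx3cl1, a membrane-bound ligand of endothelium and epithelium, averaged 66.5 ± 23.5 CPM in tumour-bearing and 56.6 ± 2.37 CPM in control lung (SD, n = 5 and 3; log2 fold change 0.23, SE 0.29, adjusted p = 0.519). Its receptor Cx3cr1, found on monocytes and macrophages, had 8.38, 2.90, 3.78, 0.683 and 6.19 CPM in tumour-bearing lung, against 12.7, 11.4 and 10.9 CPM in controls. The groups did not overlap, and the difference missed the threshold (log2 fold change -1.41, SE 0.60, adjusted p = 0.0698).

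By level, the receptors as a group summed to at most 33.9 TPM in tumour-bearing and at least 78.5 TPM in control lung, with no overlap. Much of this was Cxcr4, with a mean of 5.37 TPM in tumour-bearing and 38.5 TPM in control lung. Cxcr2 went the other way (13.3 and 2.12 TPM), and 8 of 17 tested receptors did not pass. The 37 ligands summed to 445.8 to 778.2 TPM in tumour-bearing and 1063 to 1186 TPM in control lung. TPM is not TMM-scaled, and with limma on TPM the median of all lung genes was -0.23 and -0.39. The members with the highest mean TPM were Ccl6, Cxcl17, Cxcl16, Ccl17 and Ccl8 in tumour-bearing lung and Ccl6, Ccl21a, Cxcl14, Ccl5 and Cxcl16 in control lung. Members at 1 TPM or more numbered 38 in tumour-bearing and 42 in control lung.

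Ligands were set beside their receptors in 17 receptor systems. In lung, 6 systems had a called ligand and a called receptor: CXCL12 with CXCR4 and CCL21 with CCR7, both lower at each end, the CCR8, CCR9 and CXCR3 systems with higher ligands and a lower receptor, and the CXCR2 system with Cxcr2 higher, Cxcl3 higher and Cxcl2 lower. A further 5 systems had a called ligand without a called receptor, 3 a called receptor without a called ligand, and 3 neither. Ccl8 was counted with CCR8 and not with CCR2, so the CCR2 system stands among those with a called receptor alone. Given that 59.7% of all lung genes passed, these counts are a description.

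Around the receptors, 3 of 5 atypical receptors, which bind chemokines and remove or present them without G-protein signalling, were lower in lung. Ackr2, the scavenger of inflammatory CC chemokines, had 2.49, 1.67, 4.12, 3.19 and 2.74 CPM in tumour-bearing lung, against 56.9, 58.1 and 54.8 CPM in controls, and fell by 4.31 (SE 0.27, adjusted p = 4.47e-06). Ackr4, the scavenger of CCL19, CCL21 and CCL25, had 0.213, 0.0992, 0.119, 0.0414 and 0.0734 CPM, against 8.25, 7.45 and 7.14 CPM in controls, and fell by 6.06 (SE 0.46, adjusted p = 1.15e-05). Ackr3, the scavenger of CXCL12, did not pass (log2 fold change 0.31, SE 0.36, adjusted p = 0.479). Ccrl2 was lower and Ackr1 did not pass.

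Of 19 signalling genes that act below the receptors, 3 were higher and 12 lower in lung. The kinase Grk5, which desensitises these receptors, fell by 3.53 (SE 0.15, adjusted p = 9.98e-07), and Elmo1, which couples them to Rac, fell by 3.45 (SE 0.34, adjusted p = 4.14e-05). Of 17 cytokines and regulators tested, 3 were higher (Csf2, Csf3 and Irf7) and 7 lower (Il1b, Il6, Nfkbia, Tnfaip3, Rela, Stat3 and Zfp36). Csf3 and Zfp36 had the smallest p. Zfp36, which destabilises cytokine mRNA, fell by 3.08 (SE 0.47, adjusted p = 0.000482). Of 8 enzymes that trim chemokines, 2 were higher and 2 lower. Among these Mmp2 fell by 2.21 (SE 0.21, adjusted p = 3.92e-05) and Mmp14 rose by 2.06 (SE 0.42, adjusted p = 0.00248). Of the 3 platelet and other chemokines outside the set, Cxcl15, an airway epithelial ligand, fell by 5.01 (SE 0.72, adjusted p = 0.000357) and Pf4, a platelet ligand, fell by 1.02 (SE 0.33, adjusted p = 0.0243).

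In gastrocnemius most members were near the limit of detection. Members at 1 TPM or more numbered 13 in tumour-bearing and 12 in control muscle, and 8 members (Ccl20, Ccl26, Ccr1l1, Ccr4, Ccr6, Ccr8, Cxcr1 and Xcl1) had a count of 0 in all 6 libraries, a count of 0 leaving room for as many as 3 counts per library. A further 26 members, among them Ccl1, Ccl3, Ccl4, Ccl5, Ccl7, Ccl8, Ccl12, Ccl22, Ccl27b, Ccl28, Cxcl1, Cxcl2, Cxcl3, Cxcl5, Cxcl17, Ccr1, Ccr3, Ccr7, Ccr9, Ccr10, Cxcr2, Cxcr3, Cxcr5, Cxcr6 and Xcr1, were counted but too low to test. Of the 22 members tested, 19 ligands and 3 receptors, 4 were higher and 4 lower in tumour-bearing muscle and 14 did not pass. Of all 14373 genes tested in muscle 15.3% passed, 8.53% as higher and 6.75% as lower, or 1226 and 970 genes, which upper-quartile scaling turned to 760 and 1079. The groups did not overlap for 13 of the 22 members, against 43.1% of all genes, and for all 8 called. The median log2 fold change was -0.56 over the 22 members and -0.03 over all genes.

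**Figure D4:**
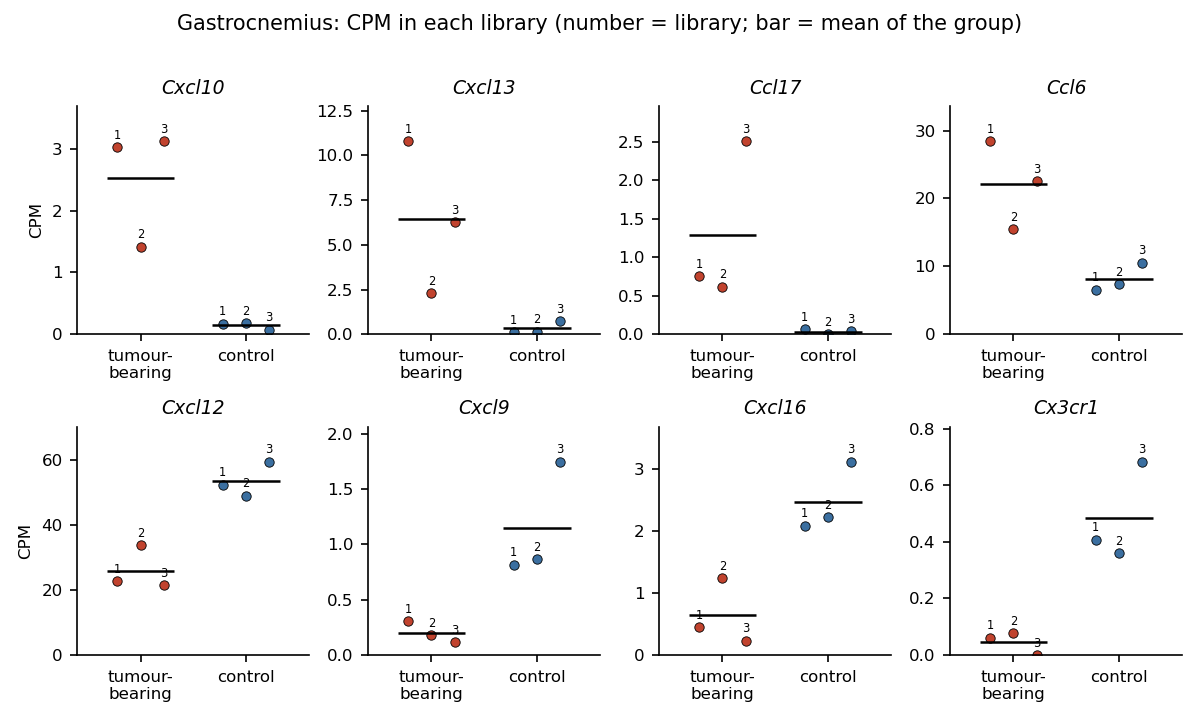
CPM in each gastrocnemius library (vertical axes, each panel with its own scale from 0) for the 8 members called in muscle, tumour-bearing left and control right, with the library number beside each point and the group mean as a bar. Cxcl10, Cxcl13, Ccl17 and Ccl6 lie above all controls in 3 of 3 tumour-bearing libraries and the other 4 lie below them.

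The 2 best measured CXCR3 ligands moved apart in muscle by CPM, and the counts behind them show how little RNA that is. Cxcl10 had 3.02, 1.42 and 3.13 CPM in tumour-bearing muscle, against 0.172, 0.180 and 0.0760 CPM in controls, from 285 counts in all over tumour-bearing and 16 over control libraries. It was the member whose call held in every one of 16 alternatives, with an adjusted p of at most 0.0434 among them. Cxcl9 had 0.304, 0.180 and 0.116 CPM in tumour-bearing muscle, against 0.817, 0.869 and 1.75 CPM in controls. In TPM its groups overlapped, with 0.49, 0.06 and 0.02 in tumour-bearing muscle and 0.3, 0.22 and 0.33 in controls. Its call was lost without any 1 control and without tumour-bearing library 3, in the fit of all 14 libraries, and on log2(TPM + 1) and log2(TPM + 0.1) with limma, where it was as small as -0.13. Cxcl11 did not pass in muscle (log2 fold change -1.17, SE 0.80, adjusted p = 0.316), and Cxcr3 had 4 counts in all over tumour-bearing and 3 over control muscle.

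Exons of Cxcl10 overlap those of Art3, which lies on the opposite strand and encodes a muscle ADP-ribosyltransferase. Art3 had 219.3, 107.3 and 115.1 CPM in tumour-bearing muscle, against 48.2, 36.2 and 25.8 CPM in controls, a rise of 2.002 (SE 0.38, adjusted p = 0.0156). In lung Art3 fell by 3.93 (SE 0.39, adjusted p = 4.97e-05), while Cxcl10 did not pass. The kit marks strand, but no source used here states whether the counting used it, and without it reads of the 2 genes cannot be told apart in their shared stretch.

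Cxcl13 had 10.8, 2.32 and 6.25 CPM in tumour-bearing muscle, against 0.107, 0.150 and 0.722 CPM in controls. All 3 tumour-bearing libraries were above the controls (log2 fold change 4.40, SE 0.80, adjusted p = 0.0145), and the call was lost without control 1 or control 2 and the value was 5.63 without control 3. Cxcr5, its receptor, had 4 counts in all over tumour-bearing and 11 over control muscle. Ccl17 had 0.750, 0.618 and 2.51 CPM in tumour-bearing muscle, against 0.0645, 0 and 0.0380 CPM in controls, which are 126 counts in all against 4. It passed (adjusted p = 0.0146), with a fitted rise of 4.99 (SE 0.91) that depends on those 4 counts, and the call was lost without any 1 control. The value was 5.96 without control 1 and 4.11 without tumour-bearing library 3. Ccr4, the receptor of CCL17, was at 0.

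Ccl6 was the most abundant of the 4 that rose, with 28.5, 15.4 and 22.5 CPM in tumour-bearing muscle, against 6.58, 7.40 and 10.6 CPM in controls. It rose by 1.44 (SE 0.32, adjusted p = 0.0245), and the call was lost without any 1 control, without tumour-bearing library 3 and in both limma fits on TPM. Ccl9, a close relative also on chromosome 11, averaged 15.4 ± 2.34 CPM in tumour-bearing and 10.9 ± 2.54 CPM in control muscle (SD, n = 3 each; log2 fold change 0.50, SE 0.28, adjusted p = 0.223). Ccr1, the receptor of CCL6 in mice, had 0.953, 0.515 and 0.270 CPM in tumour-bearing and 0.107, 0.0300 and 0.152 CPM in control muscle. It was not tested for low counts, and without a count filter it passed (adjusted p = 0.00738). Of 7 alveolar macrophage genes the 2 with enough counts to test, Chil3 and Ear2, were both higher, with sums over the list of 4.32 to 15.1 CPM in tumour-bearing and 0.580 to 0.722 CPM in control muscle. The remaining 5 genes of the list were too low to test. Siglecf and Fabp1 had no counts in any muscle library, and Marco had some in tumour-bearing muscle and none in controls. Whether the list marks alveolar macrophages in muscle was not tested. The part of cells with Chil3 and Ear2 in the rise of Ccl6 was not tested.

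Cxcr2 and Ccl3 were likewise left out by the count filter. Cxcr2 had 27, 8 and 2 counts in tumour-bearing muscle and 0 in each control. Ccl3 had 14 counts in all over tumour-bearing muscle and 0 in controls. Without a count filter Cxcr2 passed (adjusted p = 0.000335), as did Ccl3 (adjusted p = 0.0188). In the same libraries 4 of 7 neutrophil genes were higher, with sums of 6.05 to 7.41 CPM in tumour-bearing and 0.860 to 2.01 CPM in control muscle, and Ly6g was at 0 in all 6. S100a9, a granule protein of neutrophils and monocytes, had 1.58, 1.90 and 1.51 CPM in tumour-bearing muscle, against 0.301, 0.210 and 0.380 CPM in controls. Of 10 monocyte and macrophage genes 1 was higher and 1 lower, with sums of 47.2 to 68.9 CPM in tumour-bearing and 51.6 to 68.6 CPM in control muscle. Of 4 mast cell genes Mcpt4 and Cma1 were lower, with sums of 7.49 to 12.4 CPM in tumour-bearing and 17.3 to 22.96 CPM in control muscle. Summed over 4 genes of erythroid cells and platelets, tumour-bearing muscle libraries 1 to 3 held 563.5, 307.2 and 5420 CPM, against 235 to 411 CPM in controls. Of the 6 lymphocyte and dendritic cell genes with enough counts to test, Cd3e, Cd79b and Siglech were lower. The part of such cells in these values was not tested.

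Among the members that fell in muscle, Cxcl12 was the most abundant. It had 22.6, 33.8 and 21.5 CPM in tumour-bearing muscle, against 52.4, 49.0 and 59.5 CPM in controls, and fell by 1.05 (SE 0.27, adjusted p = 0.0374). The call was lost without any 1 control, without tumour-bearing library 1 or 3 and in both limma fits on TPM. Beside it 4 of 6 fibroblast genes were lower, with sums of 352.1 to 983.5 CPM in tumour-bearing and 646.9 to 1503 CPM in control muscle, and 1 of 6 endothelial genes was lower. Their part in its fall was not tested. Cxcr4 averaged 0.912 ± 0.193 CPM in tumour-bearing and 1.25 ± 0.113 CPM in control muscle (SD, n = 3 each) and did not pass (log2 fold change -0.44, SE 0.38, adjusted p = 0.420).

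Cxcl16 had 0.446, 1.24 and 0.232 CPM in tumour-bearing muscle, against 2.08, 2.22 and 3.12 CPM in controls (log2 fold change -1.93, SE 0.57, adjusted p = 0.0497). Its call was lost in 8 of 16 alternatives, among them each omission of 1 control, and the value was -2.77 without tumour-bearing library 2. Exons of Cxcl16 overlap those of Zmynd15 on the opposite strand, which had a log2 fold change of -2.08 (SE 0.73, adjusted p = 0.0801). Cxcr6 was at 2 counts in all over tumour-bearing and 9 over control muscle. Cx3cr1 had 0.0608, 0.0772 and 0 CPM in tumour-bearing muscle, against 0.408, 0.360 and 0.684 CPM in controls, a fall of 3.15 (SE 0.73, adjusted p = 0.0267) from 6 against 49 counts. That call was lost in 7 of 15 alternatives, among them each omission of 1 control. In the GENCODE annotation the body of Cx3cr1 overlaps, without shared exons, that of Xirp1, a muscle gene on the same strand that rose by 2.79 (SE 0.68, adjusted p = 0.0312).

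Cxcl14, the member with the highest TPM in both muscle groups, had 64.7, 52.0 and 58.0 CPM in tumour-bearing muscle and 60.8, 61.6 and 51.4 CPM in controls (log2 fold change 0.01, SE 0.24, adjusted p = 0.987). Ccl21a had 1.93, 7.51 and 8.99 CPM in tumour-bearing muscle, against 15.9, 19.99 and 21.7 CPM in controls, without overlap, and missed the threshold (log2 fold change -1.65, SE 0.49, adjusted p = 0.0527). Summed with Ccl21b the fall was 1.61 (SE 0.46) and passed (adjusted p = 0.0473), an alternative chosen after the data were seen. Of the 5 lymphatic endothelial genes 0 passed in muscle by edgeR, DESeq2 or limma, and 0 at an unadjusted edgeR p below 0.05, with sums of 13.2 to 21.2 CPM in tumour-bearing and 18.0 to 21.7 CPM in control muscle. Ccl11 averaged 15.1 ± 7.65 CPM in tumour-bearing and 18.8 ± 2.93 CPM in control muscle (SD, n = 3 each) and did not pass.

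The other tested ligands in muscle (Ccl2, Ccl19, Ccl21b, Ccl24, Ccl25, Ccl27a and Cx3cl1) and Ccr2 did not pass, with adjusted p from 0.0689 for Ccl21b to 0.947 for Ccr2. In the 17 receptor systems, none in muscle had a called ligand together with a called receptor, 6 had a called ligand alone, 1 a called receptor alone and 10 neither, 16 of the 19 receptors being too low to test. By edgeR 0 of 5 atypical receptors (smallest p for Ccrl2 and Ackr1), 0 of 10 cytokines and regulators (Relb and Irf7) and 0 of 16 signalling genes (Arrb1 and Grk3) passed in muscle. At an unadjusted p below 0.05 these counts were 1, 5 and 2, by DESeq2 with adjustment 0, 5 and 2, and by limma on TPM 0 for each. Dpp4, a protease that clips CXCL10 and CXCL12, was the 1 of 4 trimming enzymes to pass, with 0.446, 0.875 and 0.811 CPM in tumour-bearing muscle, against 1.57, 1.68 and 4.07 CPM in controls, a fall of 1.78 (SE 0.50, adjusted p = 0.0456). Pf4 fell by 1.28 (SE 0.36, adjusted p = 0.0442).

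Between the tissues, 21 members were tested in both, 30 passed in at least 1, and 2 passed in both: Cxcl12, lower in each, and Cxcl9, lower in muscle and higher in lung. The muscle call of Cxcl9 rests on counts, and in TPM its muscle groups overlapped. The difference between the effects in lung and in muscle was tested as an interaction over all 14 libraries, in which 15 of 52 members passed, against 35.6% of all genes. Among the 52, Ccl20, Ccr4, Ccr6, Ccr8, Cxcr1 and Xcl1 had a count of 0 in every muscle library. Their interaction SE ran from 354 to 4774, so they could not pass. The share over all genes holds such genes too. Cxcl9 differed by 7.45 (SE 1.54, adjusted p = 0.00195), the lung effect being the more positive. Cxcl12 differed by -2.25 (SE 0.39, adjusted p = 0.000559), so its fall was the larger in lung. Cxcl14, which fell in lung and not in muscle, differed by -3.11 (SE 0.33, adjusted p = 1.11e-05).

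Ccl17 (-5.14, SE 0.92, adjusted p = 0.000709), Cxcl13 (-4.80, SE 1.71, adjusted p = 0.0406) and Ccl6 (-1.56, SE 0.51, adjusted p = 0.0264) had the higher effect in muscle. Ccl22 also differed (-4.24, SE 0.83, adjusted p = 0.00132), with 0.264, 0.412 and 0.0772 CPM in tumour-bearing and 0.0215, 0.150 and 0.0380 CPM in control muscle. The other members that passed were Ccl3, Ccl11, Ccr1, Cxcl2 and Cxcr4, each with the higher effect in muscle, and Cxcl11, Cxcl16 and Ccl25, each with the higher effect in lung. Cxcl2 had 7 counts in tumour-bearing muscle library 3 and 0 in every other muscle library. That library also had the highest summed erythroid and platelet genes in muscle. Ccl25 had 1.12, 2.29 and 2.43 CPM in tumour-bearing muscle and 2.41, 2.31 and 2.89 CPM in control muscle. For Cxcl10 (-2.24, SE 1.09, adjusted p = 0.125) and Cxcr2 (-4.87, SE 2.25, adjusted p = 0.112) no difference between the tissues was shown.

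**Figure D5:**
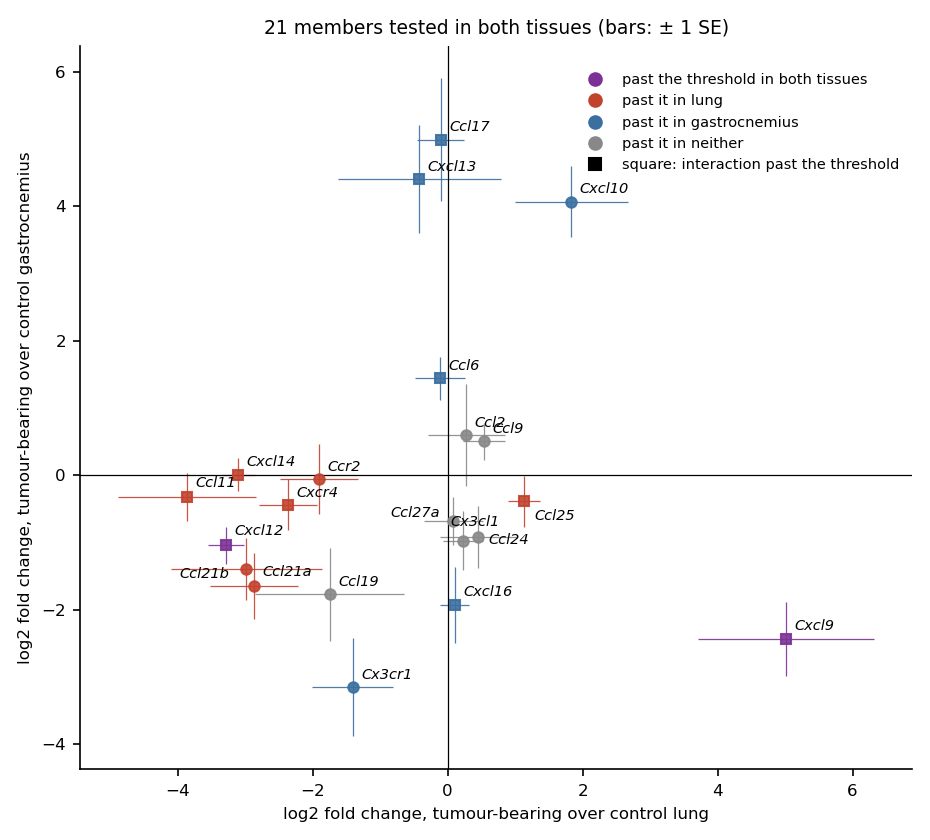
Log2 fold change of tumour-bearing over control lung (horizontal axis) against that in gastrocnemius (vertical axis) for the 21 members tested in both tissues, with bars of 1 SE, colours for where the member passed and squares where the interaction passed. Cxcl9 lies alone at lower right (5.01 in lung, -2.43 in muscle), Ccl17 and Cxcl13 lie high near the vertical line, and Cxcl12 and the Ccl21 copies lie at lower left.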

How the data were processed

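RNA of 14 libraries was prepared with a strand-marking MGIEasy kit and read at 100 bases, per the labels' protocols. Per the submitters' processing notes, Trim Galore, STAR 2.7.9a and RSEM 1.3.3 were used, with neither a strand setting nor a genome build stated in the sources used here. The authors deposited RSEM expected counts, estimates that need not be whole, and TPM, abundances per length, both without further scaling stated. RSEM shares out reads that map to several genes, so the near-identical copies Ccl21a and Ccl21b, and Ccl27a and Ccl27b, are uncertain.

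Expected counts were rounded to whole numbers and tested with edgeR 4.0.16 in R 4.3.3 (TMM, filterByExpr, two-sided quasi-likelihood test), each tissue in its own fit and the interaction over all 14 libraries, with Benjamini-Hochberg adjustment over all genes tested and a threshold of 0.05. The SE is the size of the log2 fold change over the square root of F. CPM used TMM-scaled library sizes within a tissue. Library totals ranged from 32476194 to 61087315, so that 3 counts, the limit set by a count of 0, are 0.0491 to 0.0924 CPM, for counting error only. No 2 libraries of a group agreed within sampling noise. Alternatives were RLE and upper-quartile scaling, DESeq2 1.42.0, limma 3.58.1 on log2(TPM + 1) and log2(TPM + 0.1), no count filter, a mean of at least 1 CPM, the replicate number as a block, all 14 libraries in 1 fit, and each library left out. Summing the copies was added after the data were seen.

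Members, role lists, marker lists and pathway lists were chosen with earlier results of these data known. Every member past the threshold was named, with each library's value up to 24 per tissue, as were receptors and ligands of called members and the 2 genes of smallest p in each list outside the set. Of the 55416 identifiers 52083 had a symbol. Scripts were tested on simulated data, and Python 3.11.15 with matplotlib 3.10.9 drew the plots. Values of 1 member are not reported here, though it stays in the counts.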

Additional observations from a re-analysis of the deposited data

Results flagged for a closer look

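Of 48 members examined in the 5 tumour-bearing lung libraries, 7 had 1 library apart from the other 4 by Dixon's criterion. Chance meets it in about 1 of 20 groups of normally distributed values. All 7 stood above the other 4 libraries in CPM without a log, a scale on which that rate need not hold. These were Ccl11 in library 2 (1.15 CPM), Ccl19 in library 2 (1.91 CPM), Cxcl13 in library 2 (15.7 CPM), Ccl2 in library 5 (11.2 CPM), Ccl20 in library 1 (2.39 CPM), Cxcr5 in library 1 (0.376 CPM) and Ccr1 in library 3 (12.3 CPM). The 3 stromal and lymphoid ligands Ccl11, Ccl19 and Cxcl13 were thus highest in the same library. That library also had the highest summed fibroblast genes, at 1450 CPM, against 412.5 to 815.4 CPM in the other 4 tumour-bearing libraries and 1168 to 1222 CPM in controls. The part of fibroblasts in these values was not tested. Without library 2 the fall of Ccl11 in lung was 5.81 on the log2 scale, and without library 1 that of Cxcr5 was 4.63.

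The log2 effect of tumour bearing differed between the tissues, lung minus muscle, for 15 members by the edgeR interaction test, against 35.6% of all genes. The difference was positive for Cxcl9 (7.45), Cxcl11 (6.00), Cxcl16 (1.98) and Ccl25 (1.51). It was negative for Cxcl14 (-3.11), Cxcl12 (-2.25), Ccl17 (-5.14), Ccl22 (-4.24), Ccr1 (-2.55), Ccl11 (-3.53), Cxcr4 (-1.94), Ccl6 (-1.56) and Cxcl13 (-4.80). It was also negative for Ccl3 (-8.58) and Cxcl2 (-7.94), whose muscle controls were all at 0, so that these fitted sizes are no bound. Cxcl11 rests on 1 count over the lung controls.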

How the results depend on the processing

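No called member changed direction under any alternative. In muscle the 4 higher members became 7 without a count filter and 7 with all 14 libraries in 1 fit, and 1 to 4 when a library was left out. The 4 lower members became 0 in limma on log2(TPM + 1) and 0 on log2(TPM + 0.1), with 4 and 5 at an unadjusted p below 0.05, against 6 by DESeq2. They became 7 without a count filter and 2 with a mean of at least 1 CPM, where fewer genes are tested, and 0 to 5 when a library was left out. Each of the 3 controls left out alone gave 0 lower members by edgeR, with 6 at an unadjusted p below 0.05. In lung the 7 higher members became 3 in limma on log2(TPM + 1), 5 on log2(TPM + 0.1), 5 with a mean of at least 1 CPM and 6 to 9 when a library was left out. The 17 lower members became 22 in each limma fit on TPM, 12 with a mean of at least 1 CPM and 14 to 18 when a library was left out. The interaction gave 11 to 16 members when a library was left out. Except where the settings themselves test fewer genes or samples, the cause was not tested.

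With the replicate block, muscle had 4 higher and 6 lower members and lung 7 and 15, where Ccr8 (adjusted p = 0.0954), Cxcr3 (0.0975) and Ccl21b (0.355) did not pass. Deviations of libraries with the same number correlated at 0.365, -0.033 and 0.436 in muscle and at 0.063, 0.096 and -0.011 in lung. In lung the values were near 0. In muscle, libraries with number 1 and with number 3 deviated partly together, and the sources used here do not state what a number stands for. Upper-quartile scaling moved the median of all muscle genes to -0.25, and limma moved that of lung to -0.23 and -0.39. Summing the copies gave 5 lower members in muscle and 16 in lung.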
